A study of Danio rerio with 9 samples.

Results

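The complement cascade, inflammation and myeloid cells were examined through 53 gene rows, of 32520 in the file, in whole zebrafish larvae that had been microinjected with sialylated milk oligosaccharides. The rows were found by symbol from 35 listed names, ignoring case and allowing the suffix that marks a duplicated copy. Complement proteins accounted for 22 of the rows, and cytokines, acute phase and effector genes, neutrophil and macrophage genes and their transcription factors for the other 31. The symbols cfi, saa and mpx matched no row. All larvae were wild type of the AB strain and 5 days old. SBMO-treated larvae had received sialylated bovine milk oligosaccharides and SHMO-treated larvae sialylated human milk oligosaccharides, each as 4.6 nL at 100 mmol/L at 4.7 hpf (hours after fertilization), delivered to the yolk. The control (Ctrl) larvae had not been microinjected. Each group had 3 libraries, each a separate biological replicate of whole bodies. No saline-injected library was among the 9, so the injection itself and the oligosaccharides cannot be told apart in any comparison with Ctrl.

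Complement is a cascade of plasma proteins, made mostly by the liver, in which C3 is cleaved onto microbial surfaces and C5 to C9 then build a pore in the target membrane. The classical and lectin routes reach C3 through C4, and the alternative route reaches it through factors B and D, with factor H as a brake. Neutrophils and macrophages are the phagocytes of the larva at this age, and they take up what complement has tagged. Inflammatory cytokines such as Il1b and Tnfa, and the chemokine Cxcl8, call them to a site of injury, while Socs3 damps cytokine signaling. Zebrafish carry several copies of many of these genes, and reads shared between near-identical copies (c3a.1 to c3a.6, the c3b genes and the paired SOCS3, MPEG1 and LECT2 rows) could have been split between them, so the values of single copies are uncertain. In whole larvae, fewer cells of a type and less RNA per cell cannot be told apart.

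Levels were read as TPM, a measure of transcript abundance that corrects for gene length and library total. Tests ran in limma over the 19051 genes that averaged 1 TPM or more, on log2(scaled TPM + 0.1), and log2(FC) is on that scale, which understates the change of low genes. A gene was called with a p, adjusted by Benjamini-Hochberg, of 0.05 or less and a log2(FC) of 0.58 or more in either direction. Of the 53 rows, 36 were tested, 18 of them complement genes, and the other 17 had means of at most 0.69 TPM. Between 24452 and 25305 genes were above 0 in a library. A single SHMO library stood apart from its group. SHMO replicate 1 scored 21.1 on principal component 1, which held 40.5% of the variance, against -36.0 and -34.1 for the other SHMO libraries, with SBMO libraries from -58.1 to -33.4 and Ctrl libraries from 46.4 to 79.1.

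Complement genes were lower in SBMO-treated larvae. Against Ctrl, 9 of the 18 tested complement genes fell and 0 rose, with a median log2(FC) of -1.42 against 0.05 over all genes tested. Among all 36 tested genes, 10 fell and 0 rose, where the background was 11.5% of all genes tested called lower and 8.31% called higher. The only fall outside complement was that of csf1ra. The calls were 4 of the 8 genes of the C3, C4 and C5 group, 4 of the 7 genes of the terminal pore and 1 of the 2 of the alternative pathway. The number of falling complement genes depended on single libraries. It was 3 without SBMO replicate 1, 0 without SBMO replicate 2, 6 without SHMO replicate 3, 4 when either Ctrl replicate 1 or Ctrl replicate 2 was left out and 1 when Ctrl replicate 3 was, but 12 without SBMO replicate 3 and 12 without SHMO replicate 1. Over all genes, calls numbered 3772 in the full set, 915 without SBMO replicate 2 and 1303 without Ctrl replicate 3. Across the 18 complement genes, median log2(FC) stayed below 0 under every alternative, between -1.83 and -1.03. The count of 10 ran from 1 to 15 when single libraries were left out.

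The largest fall of the 36 genes in SBMO against Ctrl was in a copy of the central component, C3. c3b.2 (ENSDARG00000001818) had 0.79, 0.61 and 1.33 TPM in SBMO libraries, 8.94, 2.28 and 2.84 TPM in SHMO libraries and 3.80, 5.41 and 5.66 TPM in Ctrl libraries. All 3 SBMO libraries were below all of the others, and the fall against Ctrl was 5.11-fold (log2(FC) = -2.35, SE 0.46, adjusted p = 0.0114). Without SBMO replicate 2 the adjusted p was 0.0538. c3b.1 (ENSDARG00000093068) had 0.90, 0.99 and 1.75 TPM in SBMO libraries, 10.9, 3.53 and 4.45 TPM in SHMO libraries and 3.61, 4.66 and 4.92 TPM in Ctrl libraries. Again the SBMO libraries were the lowest, with log2(FC) = -1.80, SE 0.39, adjusted p = 0.0155 against Ctrl, while the highest value was that of SHMO replicate 1. That call was lost without SBMO replicate 2 or Ctrl replicate 3 (adjusted p up to 0.0632). c3a.6 (ENSDARG00000043719) had 0.89, 1.19 and 1.72 TPM in SBMO libraries, 5.96, 1.35 and 1.79 TPM in SHMO libraries and 2.71, 4.17 and 4.86 TPM in Ctrl libraries. Its SBMO and Ctrl libraries did not overlap (log2(FC) = -1.54, SE 0.49, adjusted p = 0.0481), but the call was lost under 11 of 17 alternatives, which included leaving out any SBMO or Ctrl library or SHMO replicate 3 (adjusted p up to 0.148).

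c3a.1 (ENSDARG00000012694), the C3 copy with the highest level in TPM, missed the threshold. It had 3.73, 5.63 and 14.7 TPM in SBMO libraries, 57.9, 10.4 and 12.1 TPM in SHMO libraries and 16.3, 25.4 and 40.1 TPM in Ctrl libraries. SBMO libraries all lay below Ctrl libraries, yet SBMO replicate 3 was above both lower SHMO libraries, and log2(FC) against Ctrl was -1.88 (SE 0.67, adjusted p = 0.0671). It passed without SBMO replicate 3, without SHMO replicate 1 or with only the 2 groups in the model. In SBMO against Ctrl c3a.3 had a log2(FC) of -1.81 (SE 0.64, adjusted p = 0.0638) and c3a.2 one of -1.27 (SE 0.66, adjusted p = 0.178). Both passed without SBMO replicate 3, and c3a.3 also without SHMO replicate 1. c3a.4 and c3a.5 were at or below 0.24 TPM in every library. Added together, the C3 rows came to 8.53, 12.1 and 31.5 TPM in SBMO libraries, 113.2, 24.9 and 29.9 TPM in SHMO libraries and 36.6, 54.0 and 74.0 TPM in Ctrl libraries. c3a.1 made up 43.7 to 46.6% of that sum in SBMO libraries, 40.6 to 51.1% in SHMO libraries and 44.6 to 54.2% in Ctrl libraries, so these shares overlapped between the groups.

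C5, whose cleavage opens the terminal pathway, also fell. c5 (ENSDARG00000021004) had 0.47, 0.78 and 1.76 TPM in SBMO libraries, 10.8, 2.38 and 2.70 TPM in SHMO libraries and 2.86, 4.29 and 5.89 TPM in Ctrl libraries. SBMO libraries were below every other library, and log2(FC) = -2.11, SE 0.59, adjusted p = 0.0318 against Ctrl. The call was lost without either of SBMO replicates 1 and 2, without any single Ctrl library and with the replicate block (adjusted p up to 0.112). c4b, one of the C4 genes, had a log2(FC) of -0.92 (SE 0.65, adjusted p = 0.310) against Ctrl with overlapping groups. Its sister row c4 was not tested, at 0.08 to 0.28 TPM in SBMO libraries, 0.47 to 0.94 TPM in SHMO libraries and 0.21 to 0.69 TPM in Ctrl libraries.

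**Figure D1:**
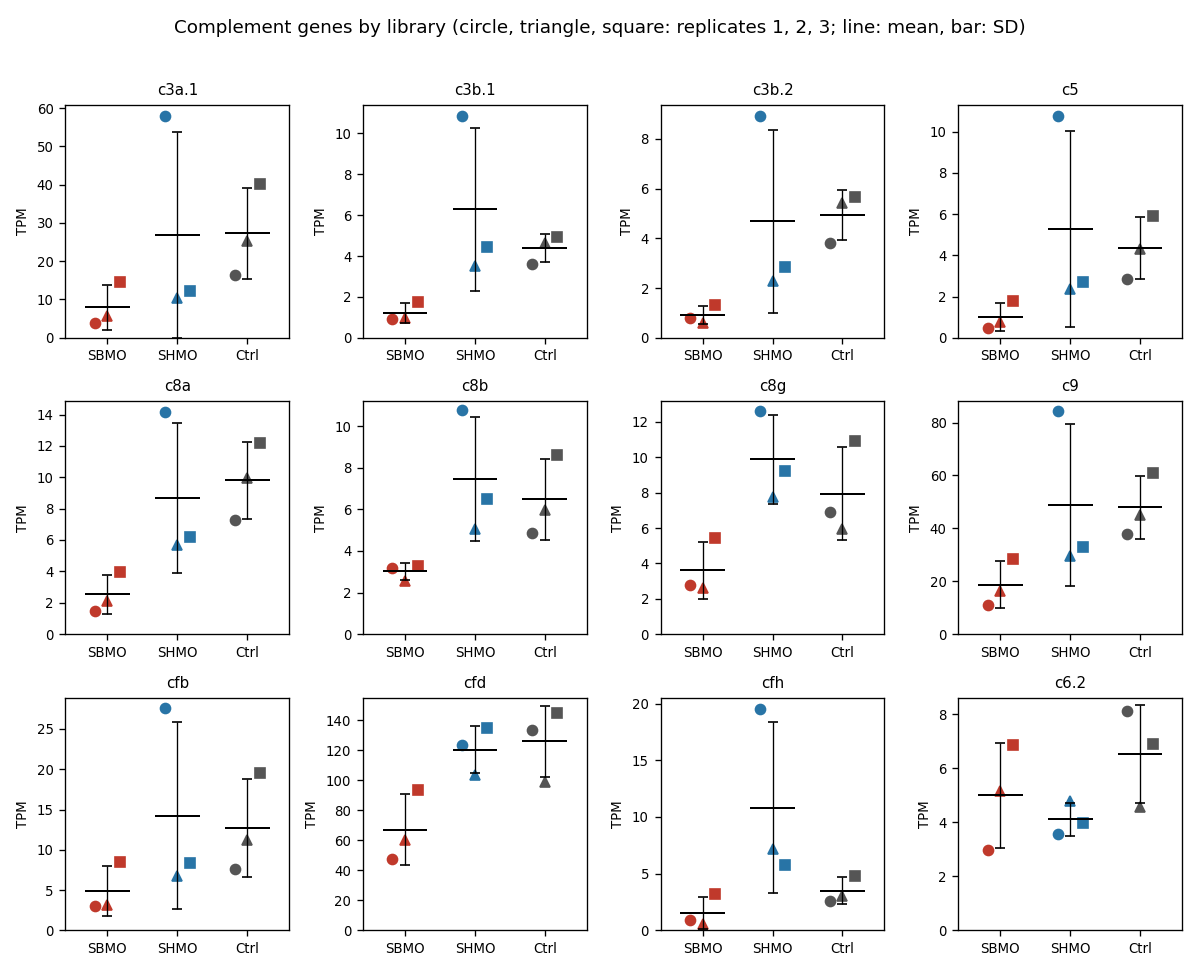
TPM of complement genes in each library, in panels by gene, with SBMO, SHMO and Ctrl from left to right. Points are single libraries (circle, triangle and square for replicates 1, 2 and 3), lines the mean and bars the SD (n = 3, cut at 0). For c3b.2 the SBMO points lie between 0.61 and 1.33 TPM and the Ctrl points between 3.80 and 5.66 TPM, while the SHMO circle reaches 8.94 TPM.

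Of the terminal pore genes, 4 of 7 were called. The 3 genes for C8 and the gene for C9, the subunit that polymerizes into the pore, fell in SBMO-treated larvae, while those for C6 and C7 did not pass, a difference between subunits that was not tested. Without SBMO replicate 2, none of the 4 passed. c8a (ENSDARG00000039516) had 1.5, 2.14 and 3.94 TPM in SBMO libraries, 14.2, 5.68 and 6.16 TPM in SHMO libraries and 7.29, 9.93 and 12.2 TPM in Ctrl libraries. The SBMO libraries were the 3 lowest (log2(FC) = -1.98, SE 0.41, adjusted p = 0.0136 against Ctrl), and the call was lost without SBMO replicate 2 or Ctrl replicate 3, with an adjusted p of up to 0.0569. c8b (ENSDARG00000039517) had 3.19, 2.57 and 3.29 TPM in SBMO libraries, 10.8, 5.04 and 6.52 TPM in SHMO libraries and 4.85, 5.98 and 8.62 TPM in Ctrl libraries. SBMO libraries were below all SHMO and Ctrl libraries, and log2(FC) = -1.03, SE 0.29, adjusted p = 0.0340 against Ctrl, a call lost under 9 of 18 alternatives, which included leaving out any SBMO library, SHMO replicate 3 or Ctrl replicate 2 or 3 (adjusted p up to 0.115).

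The gamma chain gene c8g (ENSDARG00000032098) had 2.75, 2.6 and 5.45 TPM in SBMO libraries, 12.6, 7.75 and 9.25 TPM in SHMO libraries and 6.91, 5.97 and 10.9 TPM in Ctrl libraries. No SBMO library reached the lowest value of the other groups, and log2(FC) = -1.14, SE 0.31, adjusted p = 0.0305 against Ctrl. It was lost without SBMO replicate 1 or 2, without any 1 Ctrl library or with only the 2 groups in the model (adjusted p up to 0.110). c9 (ENSDARG00000016319) was the most abundant pore gene in TPM, with 11.06, 16.3 and 28.4 TPM in SBMO libraries, 84.3, 29.4 and 33.1 TPM in SHMO libraries and 37.7, 45.1 and 61.0 TPM in Ctrl libraries. All SBMO libraries were below all SHMO and Ctrl libraries, and log2(FC) = -1.43, SE 0.43, adjusted p = 0.0407 against Ctrl. That call was lost under 8 alternatives, among them leaving out SBMO replicate 1 or 2, SHMO replicate 3 or any Ctrl library, with an adjusted p of up to 0.134.

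C6 and C7, which join the complex before C8, gave other values. c6.2 averaged 4.99 ± 1.95 TPM in SBMO, 4.11 ± 0.614 TPM in SHMO and 6.53 ± 1.81 TPM in Ctrl libraries (SD, n = 3), and log2(FC) of SBMO against Ctrl was -0.40 (SE 0.30, adjusted p = 0.331). The corresponding log2(FC) was -0.45 (SE 0.30, adjusted p = 0.280) for c7a and 0.33 (SE 0.34, adjusted p = 0.496) for c7b. Groups overlapped for all 3 genes, and c6.1 was not tested.

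In the alternative pathway, cfd (ENSDARG00000039579), the protease that cleaves factor B, was the most abundant complement gene in TPM. It had 47.8, 60.0 and 93.4 TPM in SBMO libraries, 124, 103 and 135 TPM in SHMO libraries and 134, 99.1 and 145 TPM in Ctrl libraries. SBMO libraries were below the rest without overlap, and log2(FC) = -0.93, SE 0.24, adjusted p = 0.0244 against Ctrl, lost without SBMO replicate 1 or 2 or Ctrl replicate 1 or 3 (adjusted p up to 0.0832). cfb, the catalytic subunit of the alternative C3 convertase, averaged 4.86 ± 3.13 TPM in SBMO, 14.2 ± 11.6 TPM in SHMO and 12.8 ± 6.09 TPM in Ctrl libraries (SD, n = 3). Its groups overlapped, with a log2(FC) of -1.42 (SE 0.57, adjusted p = 0.0929) against Ctrl. It passed without SBMO replicate 3 or without SHMO replicate 1.

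SBMO-treated larvae also differed from SHMO-treated larvae. In this direct comparison 4 of the 18 complement genes fell and 0 rose, with a median log2(FC) of -1.29 against 0.02 over all genes tested. Over all 36 tested genes, 5 fell and 0 rose, where 2.74% of all genes tested were called lower and 1.83% higher. The 4 complement genes were c3b.1 (log2(FC) = -2.08, SE 0.39, adjusted p = 0.0209), c3b.2 (log2(FC) = -1.96, SE 0.46, adjusted p = 0.0415), c8g (log2(FC) = -1.40, SE 0.31, adjusted p = 0.0352) and cfh. The count was 1 without SHMO replicate 1, when the median log2(FC) was -0.78. It was 0 without SBMO replicate 1, SBMO replicate 2, SHMO replicate 3 or Ctrl replicate 2, 1 without Ctrl replicate 1, 8 without SBMO replicate 3, and 0 with only the 2 groups in the model. The count of 5 ran from 0 to 11 when single libraries were left out. Over all genes, calls numbered 871 in the full set, 151 without SBMO replicate 2, 251 without SHMO replicate 1 and 117 with only the 2 groups in the model.

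cfh (ENSDARG00000100442), the soluble inhibitor of the alternative pathway, had the largest difference of the 36 genes between the treated groups. It had 0.92, 0.53 and 3.18 TPM in SBMO libraries, 19.5, 7.15 and 5.80 TPM in SHMO libraries and 2.61, 3.07 and 4.83 TPM in Ctrl libraries. Every SHMO library was above every Ctrl library, and 1 SBMO library overlapped Ctrl. In SBMO against SHMO log2(FC) was -2.80 (SE 0.59, adjusted p = 0.0286). It was -1.43 (SE 0.59, adjusted p = 0.0995) in SBMO against Ctrl and 1.37 (SE 0.59, adjusted p = 0.155) in SHMO against Ctrl, neither of which passed. The call of SBMO against SHMO was lost under 9 of 18 alternatives, which included leaving out SBMO replicate 1 or 2, any SHMO library or Ctrl replicate 1 or 2 (adjusted p up to 0.129).

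No complement gene was called in SHMO-treated larvae against Ctrl (0 of 18 in limma, with 2, c6.2 and cfh, at an unadjusted p under 0.05), and the median log2(FC) was -0.13 against 0.04 over all genes tested. Of all 19051 genes tested, 5595 had an unadjusted p under 0.05 in that comparison. The median moved with single libraries. Without SHMO replicate 1 it was -0.62 and c3a.6 passed, with an adjusted p of 0.0451, while it was 0.12 without SHMO replicate 2 and 0.02 without Ctrl replicate 3. Among all 36 tested genes, 1 rose and 2 fell, where 3.58% of all genes tested were called higher and 5.32% lower. That count of 3 was 0 without SHMO replicate 2 or 3 or Ctrl replicate 1 or 2, 1 without SBMO replicate 2 and 5 without SBMO replicate 1.

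**Figure D2:**
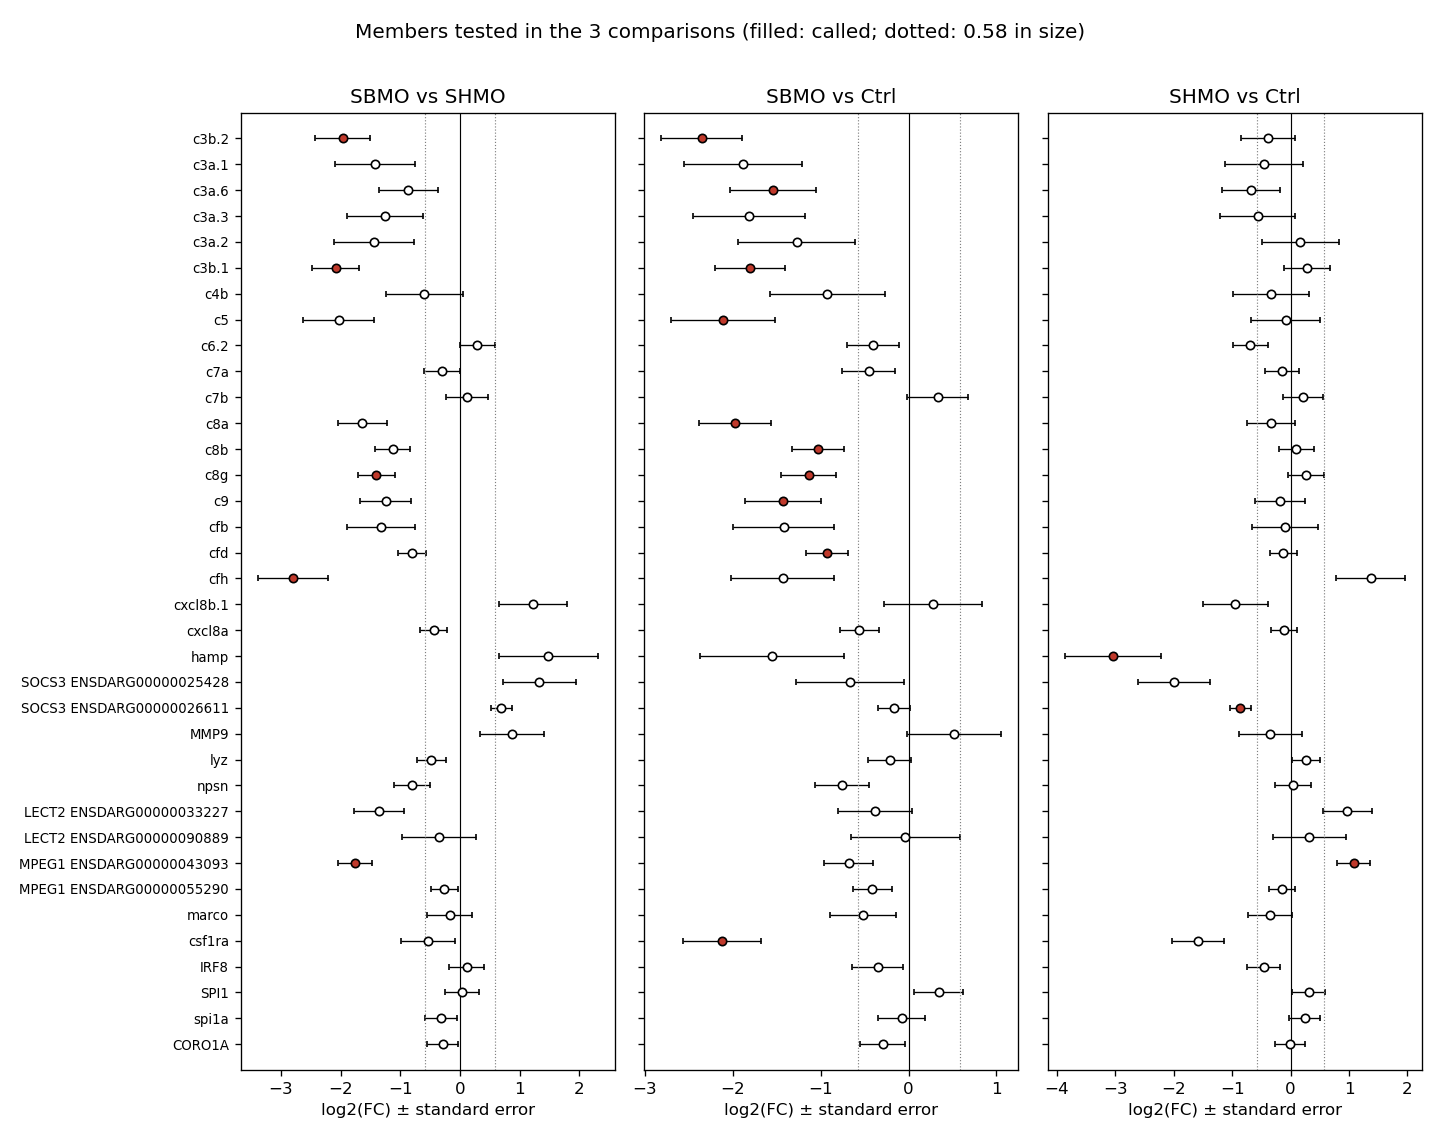
log2(FC) of the 36 tested genes in SBMO against SHMO, SBMO against Ctrl and SHMO against Ctrl, with bars of 1 SE and filled points for called genes. In SBMO against Ctrl the 10 filled points lie between -2.35 and -0.93, and in SHMO against Ctrl 2 lie below 0 and 1 above.

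The library values of complement were set beside those of the liver. The liver list held 44 rows, of which 40 were tested and 0 were at 0 in all libraries, and the members of the complement set had been left out of it. In SBMO-treated larvae 31 of the 40 liver genes fell against Ctrl (median log2(FC) -1.29) and 14 fell against SHMO-treated larvae (-1.25), where 11.5% and 2.74% of all genes tested were called lower. In SHMO against Ctrl 3 fell (-0.13), where 5.32% of all genes tested did. The count of 31 was 18 without SBMO replicate 1, 10 without SBMO replicate 2, and 13 or 8 when Ctrl replicate 2 or Ctrl replicate 3 was left out. The count of 14 was 6 without SBMO replicate 1 or Ctrl replicate 2, 1 without SBMO replicate 2 or SHMO replicate 1, 2 without SHMO replicate 3 and 24 without SBMO replicate 3. The count of 3 was 7 without SHMO replicate 1 and 1 without SHMO replicate 2 or 3 or Ctrl replicate 1 or 3. The falls in SBMO against Ctrl included HNF4A (ENSDARG00000021494), a liver and gut transcription factor, with log2(FC) = -2.36, SE 0.31, adjusted p = 0.00445. Summed liver transcripts ranged over 3929 to 6902 TPM in SBMO libraries, 8640 to 14460 TPM in SHMO libraries and 10290 to 13830 TPM in Ctrl libraries. Complement without cfd amounted to 1.01, 1.13 and 1.51% of that sum in SBMO libraries, 2.16, 1.17 and 1.07% in SHMO libraries and 1.18, 1.47 and 1.56% in Ctrl libraries. These shares overlapped between the groups, although the complement sums themselves did not overlap between SBMO and Ctrl libraries.

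Gut genes were lower in SBMO libraries as well. Of 21 tested intestine genes, 18 fell in SBMO against Ctrl (14 to 18 when single libraries were left out, against 11.5% of all genes tested), and the sums were 1117 to 1734 TPM in SBMO libraries, 1854 to 3907 TPM in SHMO libraries and 4059 to 4714 TPM in Ctrl libraries. Library by library, the median deviation of the 18 complement genes from their mean was -1.53, -1.19 and -0.08 log2 units in SBMO, 1.39, -0.18 and 0.06 in SHMO and 0.10, 0.43 and 0.87 in Ctrl. That of the liver list was -1.45, -0.87 and -0.29 in SBMO, 0.97, -0.04 and 0.19 in SHMO and 0.18, 0.54 and 0.83 in Ctrl. In both sets SHMO replicate 1 was the highest library and SBMO replicate 1 the lowest. The same held for the 4 tested genes grouped with neutrophils (0.94 and -0.96), the 3 myeloid transcription factors (0.31 and -0.17) and CORO1A (0.59 and -0.49). The 4 macrophage genes were instead highest in Ctrl replicate 3 (0.73), and the intestine list was lowest in SBMO replicate 2 (-1.93). The part of liver and gut tissue in the complement result was not tested.

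**Figure D3:**
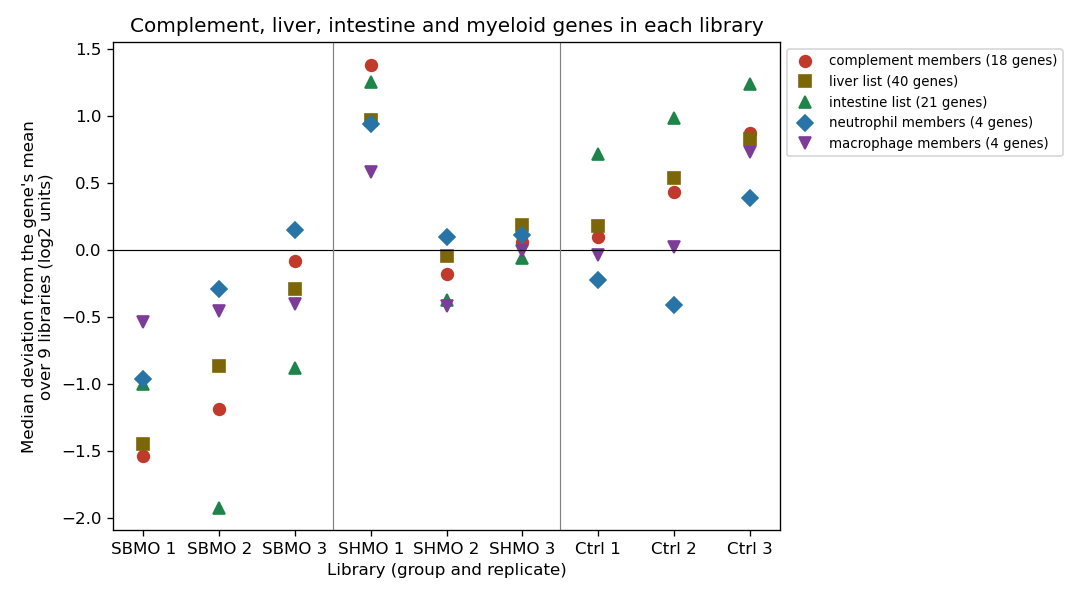
Median log2 deviation of each gene set from its mean over the 9 libraries, by library, with SBMO, SHMO and Ctrl from left to right. Complement and the liver list are both lowest in SBMO replicate 1 (-1.53 and -1.45) and highest in SHMO replicate 1 (1.39 and 0.97). The 4 neutrophil genes of the set are lowest and highest in the same libraries (-0.96 and 0.94).

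The other complement genes were read from lists compiled by name. The list of the classical and lectin pathways had 5 tested genes, MASP1, MASP2, mbl2, hbl1 and hbl4, all of the lectin pathway. The classical pathway genes c1qa, c1qb, c1qc, c1r, c1s.1 and c1s.2 were below the filter and not tested. Of the 5, 3 fell and 1 rose in SBMO against Ctrl and 0 were called in SHMO against Ctrl (limma, 3 at an unadjusted p under 0.05). In SBMO against Ctrl 11.5% of all genes tested were called lower and 8.31% higher. In SHMO against Ctrl 5595 of the 19051 genes tested had an unadjusted p under 0.05. The 3 falls were 0 without SBMO replicate 2, Ctrl replicate 2 or Ctrl replicate 3, and without SHMO replicate 1 mbl2 fell in SHMO against Ctrl, with an adjusted p of 0.00908. MASP2 (ENSDARG00000007988), the lectin pathway protease, had 0.56, 0.61 and 1.47 TPM in SBMO libraries, 5.32, 2.21 and 2.64 TPM in SHMO libraries and 2.24, 3.85 and 3.88 TPM in Ctrl libraries. Its SBMO libraries were the lowest 3, with log2(FC) = -1.87, SE 0.43, adjusted p = 0.0176 against Ctrl, lost without SBMO replicate 2, Ctrl replicate 2 or Ctrl replicate 3. The mannose-binding lectin gene mbl2 fell by 2.80 on the log2 scale (SE 0.65, adjusted p = 0.0186) in SBMO against Ctrl, a call lost without the same 3 libraries, while the hexose-binding lectin gene hbl1 rose (log2(FC) = 1.28, SE 0.24, adjusted p = 0.0105). The third fall was that of hbl4, another hexose-binding lectin gene (log2(FC) = -1.94, SE 0.48, adjusted p = 0.022), with SBMO libraries below all others.

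Among 13 tested regulators and receptors of complement, 3 rose and 2 fell in SBMO against Ctrl, against 8.31% and 11.5% of all genes tested. The rises numbered 5 without SBMO replicate 1 and 1 without SBMO replicate 2. The falls numbered 4 without SBMO replicate 3 or SHMO replicate 1, 1 without SBMO replicate 1 or 2, SHMO replicate 3 or Ctrl replicate 1 or 2, and 0 without Ctrl replicate 3. cd59b, which encodes a membrane inhibitor of the terminal pore, had 11.2, 12.03 and 7.63 TPM in SBMO libraries, 5.54, 8.34 and 9.27 TPM in SHMO libraries and 3.77, 4.26 and 3.40 TPM in Ctrl libraries. It rose in SBMO against Ctrl with log2(FC) = 1.41, SE 0.25, adjusted p = 0.00860, and the groups did not overlap. cd59a rose too (log2(FC) = 0.76, SE 0.16, adjusted p = 0.0150), except without SBMO replicate 2. The 2 falls were cfhl2, a factor H-like gene (log2(FC) = -2.28, SE 0.48, adjusted p = 0.0141, lost without Ctrl replicate 3), and serping1, the C1 inhibitor (log2(FC) = -1.73, SE 0.52, adjusted p = 0.0409), a call lost under 9 of 17 alternatives, which included leaving out SBMO replicate 1 or 2, SHMO replicate 3 or any Ctrl library. In SHMO against Ctrl 2 of the 13 rose, cd59b and crp5, and 1 fell, against 3.58% and 5.32% of all genes tested. The rises numbered 0 without SHMO replicate 2 or 3 or any Ctrl library and 1 without SBMO replicate 2 or SHMO replicate 1. The falls numbered 2 without SHMO replicate 1 and 0 without SHMO replicate 3. The cd59b call was lost under 13 of 18 alternatives, among them leaving out any Ctrl library. The fall was that of the factor H-like gene cfhl5 (log2(FC) = -2.32, SE 0.42, adjusted p = 0.0115, lost without SHMO replicate 3). cfhl5 had 1.05, 1.19 and 2.06 TPM in SBMO libraries, 0.80, 0.24 and 0.39 TPM in SHMO libraries and 1.99, 2.12 and 3.50 TPM in Ctrl libraries. It passed the filter of 1 TPM only through Ctrl, where it was highest, so its call is not support for a fall. crp5 encodes a C-reactive protein, which in mammals can start the classical pathway. It had 3.47, 28.2 and 31.1 TPM in SBMO libraries, 28.4, 37.3 and 25.7 TPM in SHMO libraries and 2.36, 3.36 and 6.60 TPM in Ctrl libraries. The rise was significant, with log2(FC) = 2.90, SE 0.73, adjusted p = 0.0373, every SHMO library lying above every Ctrl library, although SBMO replicates 2 and 3 were as high. That call was lost under 8 alternatives, including leaving out any single SHMO or Ctrl library (adjusted p up to 0.131).

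The inflammatory cytokines il1b, tnfa, tnfb and IL10 and the cxcl8 rows were at or below 7.04 TPM in every library. il1b (ENSDARG00000098700), the inflammasome product, was not tested and stood at 0.21, 0.86 and 1.25 TPM in SBMO libraries, 0.72, 0.32 and 0.41 TPM in SHMO libraries and 0.67, 0.23 and 0.35 TPM in Ctrl libraries. tnfa was listed at 0 in all 3 SBMO libraries, at 0.12, 0.03 and 0 TPM in SHMO libraries and at 0.12, 0.05 and 0.05 TPM in Ctrl libraries. These values are too low for a comparison. tnfb did not exceed 0.78 TPM, nor IL10, the anti-inflammatory cytokine, 0.18 TPM. The neutrophil-attracting chemokine gene cxcl8a (ENSDARG00000104795) had 1.37, 1.09 and 1.54 TPM in SBMO libraries, 2.07, 1.55 and 2.26 TPM in SHMO libraries and 2.30, 1.79 and 1.99 TPM in Ctrl libraries. SBMO libraries were lowest without overlap, but log2(FC) against Ctrl was -0.56 (SE 0.22, adjusted p = 0.0909). cxcl8b.1 had 0.94, 2.03 and 7.04 TPM in SBMO libraries, 1.28, 1.20 and 0.72 TPM in SHMO libraries and 2.04, 1.80 and 2.16 TPM in Ctrl libraries, and its SBMO libraries spanned the widest range of the 3 groups. cxcl8b.3 was below the filter. Of 20 other tested cytokine, chemokine and receptor genes, 3 fell in SBMO against Ctrl, a share near the 11.5% of all genes tested called lower there, among them the chemokine genes ccl25a (log2(FC) = -1.52, SE 0.34, adjusted p = 0.0167) and cxcl12b (log2(FC) = -0.95, SE 0.22, adjusted p = 0.0176). Both calls were lost without SBMO replicate 2 or Ctrl replicate 3, and that of cxcl12b also without Ctrl replicate 2. None of the 20 was called in SHMO against Ctrl (0 in limma), but 3 fell without SHMO replicate 1. In SHMO against Ctrl 4 of the 20 had an unadjusted p under 0.05, as did 5595 of all 19051 genes tested.

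The 2 falls in SHMO-treated larvae against Ctrl were in a feedback and an acute phase gene. A SOCS3 row (ENSDARG00000026611), a feedback inhibitor of cytokine signaling, had 11.4, 10.9 and 17.1 TPM in SBMO libraries, 9.14, 8.15 and 7.99 TPM in SHMO libraries and 18.2, 12.5 and 13.8 TPM in Ctrl libraries. All SHMO libraries were below all others, and the fall against Ctrl was 1.81-fold (log2(FC) = -0.86, SE 0.18, adjusted p = 0.0198), while SBMO against Ctrl gave a log2(FC) of -0.17 (SE 0.18, adjusted p = 0.520). That call was lost without SHMO replicate 2, SHMO replicate 3, Ctrl replicate 1 or Ctrl replicate 2 (adjusted p up to 0.0885). The other SOCS3 row (ENSDARG00000025428) had 8.56, 22.3 and 77.0 TPM in SBMO libraries, 11.11, 9.35 and 10.5 TPM in SHMO libraries and 54.5, 25.5 and 44.4 TPM in Ctrl libraries. SHMO libraries were again below Ctrl without overlap, with a log2(FC) of -1.998 (SE 0.61, adjusted p = 0.0665), and the row passed without SBMO replicate 1, without SBMO replicate 3 or with only the 2 groups in the model. SBMO replicate 3 held its highest value. In SBMO against Ctrl this row had a log2(FC) of -0.67 (SE 0.61, adjusted p = 0.439), and it was called lower there without SBMO replicate 3 (adjusted p = 0.0382).

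Another Socs family gene was below Ctrl in all treated libraries. CISH (ENSDARG00000060316), a cytokine-induced inhibitor of the Socs family read with the inflammatory signaling list, had 22.6, 15.8 and 18.2 TPM in SBMO libraries, 11.14, 8.73 and 9.5 TPM in SHMO libraries and 40.2, 33.3 and 34.8 TPM in Ctrl libraries. The 3 groups were fully separate, with log2(FC) = -1.94, SE 0.15, adjusted p = 0.000189 in SHMO against Ctrl and log2(FC) = -0.93, SE 0.15, adjusted p = 0.00641 in SBMO against Ctrl, and both calls held under all 18 alternatives. CISH was higher in SBMO-treated than in SHMO-treated larvae, with log2(FC) = 1.01, SE 0.15, adjusted p = 0.00746, lost with only those 2 groups in the model. Of the 30 tested genes of that list, 3 fell and 0 rose in SHMO against Ctrl and 8 fell and 0 rose in SBMO against Ctrl, where 5.32% and 11.5% of all genes tested were called lower. The first count was 1 without SHMO replicate 2 or 3, SBMO replicate 2 or any Ctrl library and 5 without SBMO replicate 1 or SHMO replicate 1, and the second was 1 without SBMO replicate 2, 4 when Ctrl replicate 1 or 2 was left out and 3 when Ctrl replicate 3 was. relb (log2(FC) = -0.98, SE 0.25, adjusted p = 0.0373 in SHMO against Ctrl) and RELA (log2(FC) = -1.35, SE 0.29, adjusted p = 0.0152 in SBMO against Ctrl), both subunits of the transcription factor NF-kappaB, were among them. The relb call was lost without SBMO replicate 2, SHMO replicate 2 or 3 or any Ctrl library, and that of RELA without SBMO replicate 2.

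hamp (ENSDARG00000102175), which encodes the iron hormone hepcidin of the liver, an acute phase product, had 1.56, 2.98 and 3.72 TPM in SBMO libraries, 4.95, 0.28 and 0.45 TPM in SHMO libraries and 11.9, 4.07 and 10.2 TPM in Ctrl libraries. SHMO replicate 1 lay above the lowest Ctrl library, so the groups overlapped, and it fell in SHMO against Ctrl with log2(FC) = -3.03, SE 0.82, adjusted p = 0.0465. The call was lost under 11 of 17 alternatives, among them leaving out SBMO replicate 2 or 3, SHMO replicate 2 or 3 or any Ctrl library (adjusted p up to 0.177). In SBMO against Ctrl log2(FC) was -1.56 (SE 0.82, adjusted p = 0.185), with no overlap. It passed there without SHMO replicate 1 (adjusted p = 0.0288) or with only the 2 groups in the model. In SBMO against SHMO log2(FC) was 1.48 (SE 0.82, adjusted p = 0.326), and hamp was called higher in SBMO without SHMO replicate 1 (adjusted p = 0.0370).

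The matrix and nitric oxide enzymes of inflamed tissue gave no calls. MMP9, a matrix metalloproteinase that neutrophils release, had 1.22, 3.57 and 7.43 TPM in SBMO libraries, 2.86, 1.25 and 1.68 TPM in SHMO libraries and 2.90, 1.85 and 2.11 TPM in Ctrl libraries. SBMO libraries reached from below the lowest to above the highest Ctrl library, with a log2(FC) of 0.52 (SE 0.54, adjusted p = 0.497). mmp13a was below the filter at 0.16 to 0.50 TPM in SBMO libraries, 0.42 to 0.83 TPM in SHMO libraries and 0.76 to 1.72 TPM in Ctrl libraries. mmp13b and both NOS2 rows, which encode the inducible nitric oxide synthase, were at or below 0.24 TPM throughout. With no filter on low values, mmp13a and cxcl8b.3 were the only 2 of the 17 untested rows called in limma. Both were lower in SBMO against Ctrl (adjusted p = 0.0400 and 0.0285), where 2408 of all 27442 genes were called lower.

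Of the genes grouped with neutrophils in the set, the 4 tested were not called in any comparison. They were lyz, npsn and 2 LECT2 rows, and LECT2 is not a gene of neutrophils alone. lyz (ENSDARG00000057789), the lysozyme gene, had 49.2, 72.4 and 97.5 TPM in SBMO libraries, 122, 92.3 and 99.9 TPM in SHMO libraries and 87.9, 65.6 and 97.3 TPM in Ctrl libraries. The groups overlapped, with a log2(FC) of -0.21 (SE 0.24, adjusted p = 0.540) in SBMO against Ctrl and 0.27 (SE 0.24, adjusted p = 0.485) in SHMO against Ctrl. npsn, which encodes the neutrophil protease nephrosin, averaged 6.92 ± 3.00 TPM in SBMO, 12.4 ± 3.51 TPM in SHMO and 11.5 ± 2.87 TPM in Ctrl libraries (SD, n = 3), with a log2(FC) of -0.76 (SE 0.30, adjusted p = 0.0929) in SBMO against Ctrl, which passed without SBMO replicate 3. A LECT2 row (ENSDARG00000033227), for a leukocyte chemotactic factor that mammalian liver secretes, had 7.39, 13.4 and 24.0 TPM in SBMO libraries, 48.5, 25.6 and 38.9 TPM in SHMO libraries and 16.4, 12.7 and 26.3 TPM in Ctrl libraries. SHMO libraries were above SBMO libraries without overlap, yet SBMO against SHMO gave a log2(FC) of -1.35 (SE 0.42, adjusted p = 0.0954). For the second LECT2 row (ENSDARG00000090889) the groups overlapped in each comparison, and lect2.3 was not tested. Over the 4 tested genes, limma called 0, and 2 had an unadjusted p under 0.05 in SBMO against SHMO, 1 in SBMO against Ctrl and 1 in SHMO against Ctrl. Of all 19051 genes tested, 4175, 7512 and 5595 had such a p, in the same order. In the wider neutrophil list 3 of 11 tested genes fell in SBMO against Ctrl, where 11.5% of all genes tested did, those of il6r, an interleukin receptor gene (log2(FC) = -1.77, SE 0.42, adjusted p = 0.0193), and ITLN1 (log2(FC) = -1.63, SE 0.39, adjusted p = 0.0208) having the smallest adjusted p. The third was PGLYRP2, and il6r was also counted among the falls of the cytokine, chemokine and receptor list. The other 8 were not called there, among them cyba, NCF1, cybb, srgn and fcer1gl. In SBMO, SHMO and Ctrl libraries il6r averaged 0.423, 1.27 and 1.70 TPM, ITLN1 0.897, 0.94 and 3.24 TPM and PGLYRP2 0.533, 1.20 and 1.91 TPM. These 3 genes passed the filter of 1 TPM only through Ctrl, where they were highest, so their count is not support for a fall of neutrophil genes. The count of 3 was 0 without SBMO replicate 2 or Ctrl replicate 3 and 1 without Ctrl replicate 2. The il6r call was lost without SBMO replicate 2 or Ctrl replicate 3 and with quantile normalization, and that of ITLN1 without SBMO replicate 2, Ctrl replicate 2 or Ctrl replicate 3. ITLN1, an intelectin, also fell in SHMO against Ctrl (log2(FC) = -1.70, SE 0.39, adjusted p = 0.0274, lost without SHMO replicate 2 or 3 or Ctrl replicate 2 or 3), and no other gene of the 11 was called there, though 2 were without SHMO replicate 1.

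**Figure D4:**
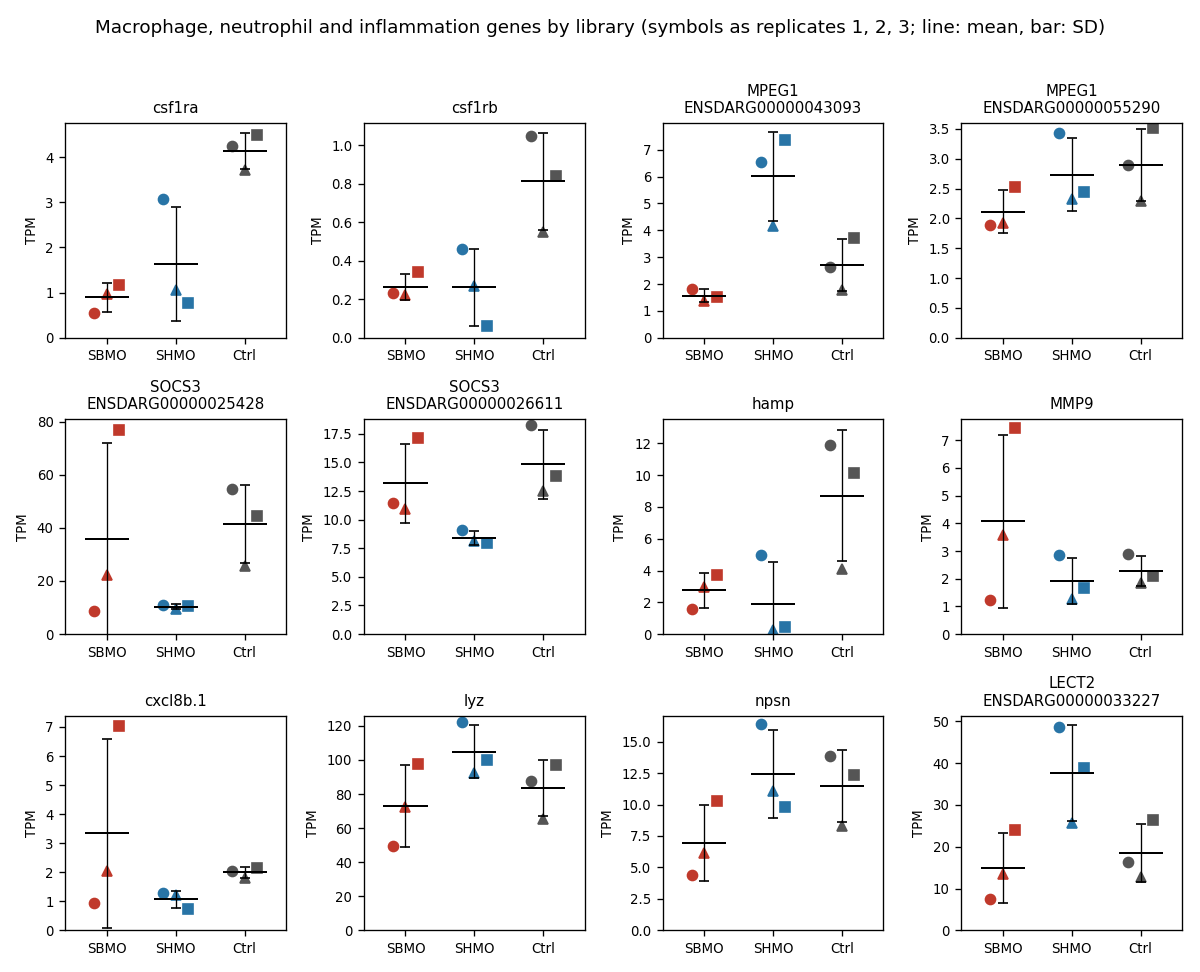
TPM of inflammation, neutrophil and macrophage genes in each library, in panels by gene, with SBMO, SHMO and Ctrl from left to right. Points are single libraries (circle, triangle and square for replicates 1, 2 and 3), lines the mean and bars the SD (n = 3, cut at 0). csf1ra lies between 3.71 and 4.49 TPM in Ctrl libraries and at or below 1.17 TPM in SBMO libraries, and the MPEG1 row ENSDARG00000043093 is highest in SHMO libraries, at 4.16 to 7.35 TPM.

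The 4 tested macrophage genes of the set all had log2(FC) below 0 in SBMO against Ctrl, and 3 of them in SHMO against Ctrl. So did 32 and 23 of all 36 tested genes of the set, and 8771 and 8850 of all 19051 genes tested. Among the 4, the exception was an MPEG1 row called higher in SHMO. This MPEG1 row (ENSDARG00000043093), for the pore-forming protein perforin-2 of macrophages, had 1.83, 1.36 and 1.52 TPM in SBMO libraries, 6.53, 4.16 and 7.35 TPM in SHMO libraries and 2.65, 1.77 and 3.70 TPM in Ctrl libraries. All SHMO libraries were above all others. It rose in SHMO against Ctrl (log2(FC) = 1.08, SE 0.28, adjusted p = 0.0425), a call lost without any 1 SHMO library, SBMO replicate 2 or 3, or Ctrl replicate 1 or 2 (adjusted p up to 0.171). In SBMO against SHMO it fell with log2(FC) = -1.76, SE 0.28, adjusted p = 0.0106, lost without SBMO replicate 2 (adjusted p = 0.0619), and SBMO against Ctrl gave a log2(FC) of -0.68 (SE 0.28, adjusted p = 0.101). The second MPEG1 row (ENSDARG00000055290) had 1.89, 1.93 and 2.53 TPM in SBMO libraries, 3.44, 2.33 and 2.44 TPM in SHMO libraries and 2.89, 2.30 and 3.51 TPM in Ctrl libraries. It had 0 calls in the 3 comparisons, with a log2(FC) of -0.15 (SE 0.22, adjusted p = 0.688) in SHMO against Ctrl and -0.41 (SE 0.22, adjusted p = 0.195) in SBMO against Ctrl. Which of these rows is mpeg1.1 is not given by the symbols. A further MPEG1 row (ENSDARG00000078569) was at or below 0.03 TPM. marco, a scavenger receptor gene, averaged 1.00 ± 0.0586 TPM in SBMO, 1.27 ± 0.486 TPM in SHMO and 1.59 ± 0.734 TPM in Ctrl libraries (SD, n = 3) and was not called.

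csf1ra (ENSDARG00000102986), the receptor for the macrophage growth factor Csf1, was the macrophage gene called in SBMO against Ctrl. It had 0.55, 0.97 and 1.17 TPM in SBMO libraries, 3.08, 1.06 and 0.76 TPM in SHMO libraries and 4.24, 3.71 and 4.49 TPM in Ctrl libraries. Every injected library was below every Ctrl library. The fall in SBMO against Ctrl was 4.37-fold (log2(FC) = -2.13, SE 0.45, adjusted p = 0.0138), lost without Ctrl replicate 3 (adjusted p = 0.0536). SHMO against Ctrl gave a log2(FC) of -1.59 (SE 0.45, adjusted p = 0.0512), short of the threshold, and passed without SBMO replicate 1 or SHMO replicate 1, with a pseudocount of 1, quantile normalization or a robust variance prior. Its duplicate csf1rb was not tested, at 0.22 to 0.34 TPM in SBMO libraries, 0.06 to 0.46 TPM in SHMO libraries and 0.55 to 1.05 TPM in Ctrl libraries.

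In zebrafish csf1ra is also used by xanthophores, the yellow pigment cells. Genes of these cells were therefore looked up after the csf1ra values had been seen. All 7 that matched a row fell in SBMO against Ctrl and 1 fell in SHMO against Ctrl, where 11.5% and 5.32% of all genes tested did. Without Ctrl replicate 3 the count of 7 was 3. Their summed level was 16.1, 19.8 and 26.8 TPM in SBMO libraries, 103.4, 52.9 and 45.7 TPM in SHMO libraries and 70.4, 50.4 and 82.0 TPM in Ctrl libraries. gch2, the pteridine synthesis gene of the list, had 1.95, 4.01 and 6.18 TPM in SBMO libraries, 50.6, 22.9 and 17.1 TPM in SHMO libraries and 20.03, 12.2 and 29.1 TPM in Ctrl libraries, and log2(FC) = -2.35, SE 0.48, adjusted p = 0.0133 in SBMO against Ctrl, lost without Ctrl replicate 3. In SHMO libraries these sums overlapped Ctrl while csf1ra did not. XDH and SCARB1 of the list are also used in other tissues. The part of xanthophores in the csf1ra result was not tested.

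The factors that specify myeloid cells were measured near 1 to 2 TPM. IRF8, needed for macrophages, averaged 1.22 ± 0.208 TPM in SBMO, 1.21 ± 0.310 TPM in SHMO and 1.63 ± 0.449 TPM in Ctrl libraries (SD, n = 3). SPI1 (ENSDARG00000000767), the Pu.1 factor, averaged 1.62 ± 0.396 TPM in SBMO, 1.66 ± 0.268 TPM in SHMO and 1.27 ± 0.282 TPM in Ctrl libraries (SD, n = 3), and its relative spi1a 1.31 ± 0.0569 TPM in SBMO, 1.84 ± 0.649 TPM in SHMO and 1.41 ± 0.0954 TPM in Ctrl libraries (SD, n = 3). None passed in any comparison, with log2(FC) from -0.46 to 0.34. CORO1A, an actin-binding protein of all leukocytes, averaged 5.82 ± 1.24 TPM in SBMO, 7.73 ± 2.58 TPM in SHMO and 7.27 ± 1.69 TPM in Ctrl libraries (SD, n = 3), with a log2(FC) of -0.29 (SE 0.26, adjusted p = 0.411) in SBMO against Ctrl. ptprc (CD45), below the filter, was at 0.45 to 0.90 TPM in SBMO libraries, 0.42 to 0.58 TPM in SHMO libraries and 0.95 to 0.99 TPM in Ctrl libraries, so every injected library was below every Ctrl library.

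Other leukocyte genes were counted from wider marker lists. Of 25 tested macrophage genes outside the 53 rows, 7 fell in SBMO against Ctrl and 5 in SHMO against Ctrl, and 0 rose in either, where 11.5% and 5.32% of all genes tested were called lower. The 7 were apoeb, LGMN, cd68, ctsla, ctss2.2, SLC7A7 and apoc1, and the 5 were the same without cd68 and apoc1. The tested MFAP4 rows, mrc1b, cxcr3.2, stab1, timd4 and havcr2 were called in neither comparison. Ctrl libraries averaged 677 TPM for apoeb and 178 TPM for LGMN, against 2.71 TPM for the MPEG1 row ENSDARG00000043093. The part of other cell types in these counts was not tested. When single libraries were left out, the first count was 6 to 8 and the second 1 to 7, with 1 without SHMO replicate 3, 2 without SHMO replicate 2 or Ctrl replicate 3 and 3 without Ctrl replicate 2. apoeb, an apolipoprotein gene of macrophages, microglia and other cells, had 271, 296 and 321 TPM in SBMO libraries, 475, 317 and 373 TPM in SHMO libraries and 688, 614 and 729 TPM in Ctrl libraries. Both treated groups were below Ctrl without overlap, with log2(FC) = -1.18, SE 0.16, adjusted p = 0.00468 in SBMO and log2(FC) = -0.89, SE 0.16, adjusted p = 0.0108 in SHMO, the second lost without SHMO replicate 3. LGMN (ENSDARG00000039150), a lysosomal protease gene, averaged 74.0 ± 5.56 TPM in SBMO, 72.7 ± 19.1 TPM in SHMO and 178 ± 29.6 TPM in Ctrl libraries (SD, n = 3), and fell in SHMO against Ctrl with log2(FC) = -1.38, SE 0.20, adjusted p = 0.00471. It also fell in SBMO against Ctrl, with log2(FC) = -1.24, SE 0.20, adjusted p = 0.00675, and both calls held under all 18 alternatives. cd68, a lysosomal glycoprotein of macrophages, had 8.21, 7.28 and 8.33 TPM in SBMO libraries, 23.3, 16.0 and 15.7 TPM in SHMO libraries and 17.2, 18.6 and 21.6 TPM in Ctrl libraries. It fell in SBMO against Ctrl with log2(FC) = -1.24, SE 0.18, adjusted p = 0.00551, under all 18 alternatives, and its SHMO and Ctrl libraries overlapped. Among 16 tested pan-leukocyte genes 2 fell in SBMO against Ctrl, a share near the 11.5% of all genes tested called lower there. They were hcls1 (log2(FC) = -0.83, SE 0.23, adjusted p = 0.0331) and rac2 (log2(FC) = -0.69, SE 0.21, adjusted p = 0.0381), both lost without SBMO replicate 1 or 2, SHMO replicate 3 or Ctrl replicate 1 or 3, and the count was 4 without SHMO replicate 1. Of 12 tested erythrocyte genes 5 fell in SBMO against Ctrl and 1 in SHMO against Ctrl, where 11.5% and 5.32% of all genes tested were called lower. Both counts were 0 without Ctrl replicate 3. The count of 5 was also 0 without SBMO replicate 2 and 1 to 3 without SBMO replicate 3, SHMO replicate 3, Ctrl replicate 1 or Ctrl replicate 2. None of 8 tested lymphoid genes was called against Ctrl in either treated group (0 in limma, with 3 in SBMO and 4 in SHMO at an unadjusted p under 0.05). Of all 19051 genes tested, 7512 in SBMO and 5595 in SHMO against Ctrl had such a p. Without SHMO replicate 1, 3 lymphoid genes rose in SBMO against Ctrl and 2 in SHMO against Ctrl, where 1795 and 1013 of all 19051 genes tested were called higher.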

How the data were processed

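RNA of whole larvae was sequenced in 9 libraries, 3 per group. According to the study's methods and the submitters' processing notes, the authors captured polyadenylated RNA, made stranded libraries, trimmed the reads with Scythe and Sickle, and used STAR and RSEM with GRCz11 (versions not given in the sources used here). The authors deposited TPM, which keeps no depth, so counting intervals were not computed and the precision of low values is unknown.

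TPM of each library were scaled by a median-ratio factor (0.918 to 1.07), 0.1 was added and log2 taken. The 19051 genes averaging 1 TPM or more, of 27442 above 0 anywhere, were fitted together for all 9 libraries (limma 3.58.1 in R 4.3.3, eBayes with a trend, prior degrees of freedom 4.14). The 3 comparisons share libraries, and p-values were adjusted by Benjamini-Hochberg within each. They set each group difference against the spread between these replicates, as estimated over the 3 groups together with the prior. The replicates were pools of larvae and not single animals. The scripts were tested on simulated data. Symbols matched 29201 of 32520 identifiers. Figures used Python 3.11.15 and matplotlib 3.10.9.

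Library values are given for called genes of the set and for il1b, tnfa, cxcl8a, lyz, both tested MPEG1 rows, csf1ra, c3a.1 and c9. mpeg1.1 was among the genes to be given in full, but the symbols do not tell which MPEG1 row it is. From the lists, values are given for at most 2 called genes per list, direction and comparison, and for hbl4, not always by library. Summed levels were added as descriptions. The genes and the lists were chosen with earlier results of these data known, and the xanthophore list after the csf1ra values. Alternatives were other pseudocounts (1 and 0.01), no filter or a minimum of 5 TPM, no further scaling, quantile normalization, a replicate block, a robust prior, the 2 groups alone and leaving out each library. Promoter motifs, sequences and coordinates were not analysed here.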

Additional observations from a re-analysis of the deposited data

Results flagged for a closer look

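In 5 genes the difference of SBMO-treated from SHMO-treated larvae was itself significant in limma (adjusted p of at most 0.05). All 5 were lower in SBMO, where 2.74% of all genes tested were called lower. With only these 2 groups in the model, just the MPEG1 row ENSDARG00000043093 kept its call, and calls over all genes numbered 117, against 871 in the full set. The log2(FC) of SBMO against SHMO was -1.96 for c3b.2, -2.08 for c3b.1, -1.40 for c8g, -2.80 for cfh and -1.76 for the MPEG1 row ENSDARG00000043093. For each of the 5 genes every SBMO library was below every SHMO library, which adds no support, since the genes were picked by the same values. For cfh and MPEG1 the SHMO libraries were also all above Ctrl, whereas for c3b.1, c3b.2 and c8g the SHMO and Ctrl libraries overlapped. Without SBMO replicate 2, 0 of the 5 passed, and calls over all genes numbered 151. Without SHMO replicate 1, c3b.1 and MPEG1 passed and the other 3 did not, and calls over all genes numbered 251.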

How the results depend on the processing

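Over 18 alternatives, 1743 values of single genes of the set kept their call or its absence, 110 lost a call, 34 gained one and 0 changed sign when called. The 1743 include genes that were not called in the full set. All 110 losses fell on the 10, 5 and 3 calls of the full set, so the 1743 do not show how well a call held. Leaving out 1 library at a time, the genes called numbered 1 to 15 in SBMO against Ctrl (10 in the full set), 0 to 11 in SBMO against SHMO (5) and 0 to 5 in SHMO against Ctrl (3). With no filter they numbered 1 in SHMO against Ctrl and 2 in SBMO against SHMO, and with a minimum of 5 TPM 5 in SBMO against Ctrl, 2 in SBMO against SHMO and 1 in SHMO against Ctrl, where 17 genes were tested. With only the 2 groups in the model, 1 was called in SBMO against SHMO. Same-numbered libraries did not deviate together (r from -0.259 to 0.152), so the numbers were not taken as pairs. With the replicate block, the genes called numbered 6 in SBMO against Ctrl, 4 in SBMO against SHMO and 2 in SHMO against Ctrl, and calls over all genes 2898, 603 and 1111 in the same order, against 3772, 871 and 1695 without it. With no further scaling the median of all genes shifted to 0.11 in SHMO against Ctrl, and the calls there split into 879 higher and 794 lower, against 682 and 1013, and those in SBMO against SHMO into 258 higher and 617 lower, against 349 and 522. Count models were not run on TPM. With 3 libraries per group and unknown depth, genes under 1 TPM such as il1b and tnfa were beyond the reach of these comparisons.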

Other observations

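foxn1 (ENSDARG00000011879), which encodes a transcription factor of the thymic epithelium, had 0.79, 0.41 and 0.73 TPM in SBMO libraries, 2.71, 1.85 and 2.27 TPM in SHMO libraries and 1.45, 0.79 and 1.00 TPM in Ctrl libraries. SHMO libraries were above all others, and it fell in SBMO against SHMO with log2(FC) = -1.63, SE 0.31, adjusted p = 0.0212, lost without SBMO replicate 2, SHMO replicate 1 or SHMO replicate 3. foxn1 passed the filter of 1 TPM only through SHMO, where it was highest, so this call is not support for a difference. samsn1a, an adaptor of blood cells, had 38.7, 38.8 and 34.2 TPM in SBMO libraries, 13.3, 13.9 and 17.1 TPM in SHMO libraries and 25.1, 25.7 and 28.2 TPM in Ctrl libraries. Its SBMO libraries were above all SHMO libraries (log2(FC) = 1.42, SE 0.16, adjusted p = 0.00277), under all 18 alternatives, and it fell in SHMO against Ctrl (log2(FC) = -0.91, SE 0.16, adjusted p = 0.00978), except without SHMO replicate 2.

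The c3b copies held 19.8, 13.2 and 9.77% of all C3 transcripts in SBMO libraries, 17.5, 23.3 and 24.4% in SHMO libraries and 20.2, 18.7 and 14.3% in Ctrl libraries. With cfd included, complement amounted to 2.23, 2.39 and 2.87% of the liver sum in SBMO libraries, 3.02, 2.36 and 2.33% in SHMO libraries and 2.46, 2.44 and 2.61% in Ctrl libraries, so the groups overlapped. pycard, the inflammasome adaptor, had 34.9, 24.9 and 30.5 TPM in SBMO libraries, 73.1, 47.7 and 55.8 TPM in SHMO libraries and 48.2, 41.4 and 60.9 TPM in Ctrl libraries, and fell in SBMO against SHMO with log2(FC) = -0.87, SE 0.20, adjusted p = 0.0360, lost under 8 of 18 alternatives, which included leaving out any SBMO library, SHMO replicate 1 or 3 or Ctrl replicate 1 or 2.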
